A study of Oreochromis niloticus with 12 samples.

Results

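Transcripts of 5 myelin genes were followed in male Nile tilapia (Oreochromis niloticus) of dominant or subordinate social status. The 5 genes were fa2h, ugt8, myrf, pmp22 and cldn11a, out of 27115 genes in the brain table. The rows fa2h, ugt8, myrf and pmp22 were found by the name in the table. The row LOC100700549 was found by its RefSeq symbol, cldn11a, and was also the only member among the 714 genes of the pituitary table. The 5 genes had been picked with their brain and pituitary values by status in view. Their status differences are therefore described here with no test and support nothing.

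Myelin is the layered membrane that glia wrap around axons. In the brain and spinal cord it is made by oligodendrocytes, and in peripheral nerves by Schwann cells. Its membrane is rich in galactosylceramide and its sulfated form, sulfatide, which are built from ceramide in a few enzymatic steps. In mammals the enzyme fa2h hydroxylates the fatty acids of these lipids, ugt8 adds galactose to ceramide, and gal3st1 adds the sulfate. The factor myrf is a membrane-bound protein whose released part switches on myelin genes in oligodendrocytes. The proteins of pmp22 and cldn11 both cross the membrane several times. In mammals the first belongs to compact peripheral myelin and to epithelia, and the second forms the tight junctions of brain myelin and of the testis.

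Messenger RNA of brains and pituitaries was sequenced from mature males, with 3 libraries for each tissue and status and 12 in all. Dominant males were the reproducing males of their tanks and subordinate males were non-reproducing. All were of the Lake Manzala strain, had shared a tank of 2 males and several females, and were sampled after 14 days. No genetic or drug treatment is named in the labels, which also do not say whether numbered samples came from separate tanks, nor whether a library is 1 fish. P-values then measure only the spread between these samples, which may be technical. In tissue libraries like these, fewer myelin-forming cells and less transcript per cell cannot be told apart.

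Brain libraries held 23733115 to 26867631 recovered reads. Values are the authors' deposited normalised read counts, for which the reads of a library are divided by its size factor. Each difference is that of mean log2(value + 1), dominant minus subordinate, given with its standard error (SE). This scale understates changes of low genes. The neuronal gene snap25 stood at 96541 to 102322 normalised reads in the 6 brains, as fits the tissue label. The growth hormone gene gh1 stood at 1031202 to 5513556 in the 6 pituitaries. Subordinate brain 3 stood apart in pituitary hormone transcripts, which summed to 29532 normalised reads over 8 genes there, against 10362 to 15002 in the other 5 brains. All 8 of these genes had a difference below 0, with a median of -0.59, where 48.8% of all genes tested were above 0. In 3 of them dominant brains lay entirely below subordinate ones, as for 5.33% of all genes. Because subordinate brain 3 stood apart, the differences of the members and the medians of the 3 myelin lists are also given without it. A mean of 10 normalised reads or more was required for testing, which 21743 genes passed, all 5 members included.

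The lipid enzyme fa2h had 1137, 1218 and 902 normalised reads in dominant brains 1, 2 and 3, and 817, 739.7 and 544 in subordinate brains 1, 2 and 3. All 3 dominant libraries lay above all 3 subordinate ones, and subordinate brain 3 was the lowest of the 6. Means were 1086 ± 164 in dominant and 700.3 ± 141 in subordinate brains (SD, n = 3 each), a ratio of 1.55. The log2 difference was 0.64 ± 0.18 (SE), and 0.47 without subordinate brain 3.

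The next enzyme of the pathway, ugt8, had 1558, 1449.7 and 1493 normalised reads in dominant brains 1, 2 and 3, and 1374, 1026 and 904 in subordinate brains 1, 2 and 3. Again the groups did not overlap, but the subordinate libraries were far more spread out than the dominant ones. Their coefficient of variation was 3.64% in dominant and 22.1% in subordinate brains. Means were 1500.5 ± 54.6 and 1102 ± 244 (dominant and subordinate, SD, n = 3 each). The log2 difference was 0.47 ± 0.15 (SE), 0.64 without subordinate brain 1 and 0.34 without subordinate brain 3.

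The regulator myrf had the smallest coefficient of variation of the 5 genes in dominant brains, 1.95%. It stood at 2314, 2300.2 and 2385 normalised reads there, and at 1979, 2091 and 1615 in subordinate brains 1, 2 and 3. The groups did not overlap, and subordinate brain 3 was the lowest library for this gene too. Means were 2333 ± 45.5 in dominant and 1895 ± 249 in subordinate brains (SD, n = 3 each), a log2 difference of 0.31 ± 0.10 (SE). Without subordinate brain 3 that difference was 0.20.

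The ratio between the groups was largest of the 5 genes for pmp22. It had 635, 498 and 827 normalised reads in dominant brains 1, 2 and 3, and 282, 291 and 233 in subordinate brains 1, 2 and 3. Here the dominant libraries were the more spread out, with a coefficient of variation of 25.3% in dominant and 11.5% in subordinate brains. The lowest dominant library exceeded the highest subordinate one by 207 normalised reads. Means were 653 ± 165 in dominant and 269 ± 31.0 in subordinate brains (SD, n = 3 each), a ratio of 2.43 and a log2 difference of 1.25 ± 0.19 (SE). It was 1.07 to 1.43 with any 1 library left out, and 1.154 without subordinate brain 3.

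A separate locus, LOC100701746, carries the RefSeq symbol pmp22a and showed no such gap. It stood at 91.2, 84.7 and 92.1 normalised reads in dominant brains 1, 2 and 3, and at 108, 75.8 and 79.5 in subordinate brains 1, 2 and 3. The ranges overlapped, with a log2 difference of 0.040 ± 0.18 (SE, limma adjusted p = 0.983 over all genes). Whether the row named pmp22 in the deposited table is the locus that RefSeq now calls pmp22b was not settled by the files. How reads that match both copies were counted is not given in the sources used here.

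The tight junction gene cldn11a did not separate the brains by status. It had 124, 220.1 and 197 normalised reads in dominant brains 1, 2 and 3, and 129, 212 and 193 in subordinate brains 1, 2 and 3. Both libraries numbered 1 were low and the other 4 lay close together. Means were 180.4 ± 49.9 in dominant and 178 ± 43.3 in subordinate brains (SD, n = 3 each), a log2 difference of 0.0086 ± 0.27 (SE). With 1 library left out it ran from -0.21 without subordinate brain 1 to 0.25 without dominant brain 1, and was 0.082 without subordinate brain 3.

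Groups thus did not overlap for 4 of the 5 members in the brain, each higher in dominant males. Over all 21743 genes tested, 5.46% had dominant libraries entirely above subordinate ones. The authors' deposited table gives log2 fold changes of 0.63 for fa2h, 0.45 for ugt8, 0.30 for myrf, 1.28 for pmp22 and 0.021 for cldn11a in the brain. Nothing is read from that comparison, since the members were picked from it.

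**Figure D1:**
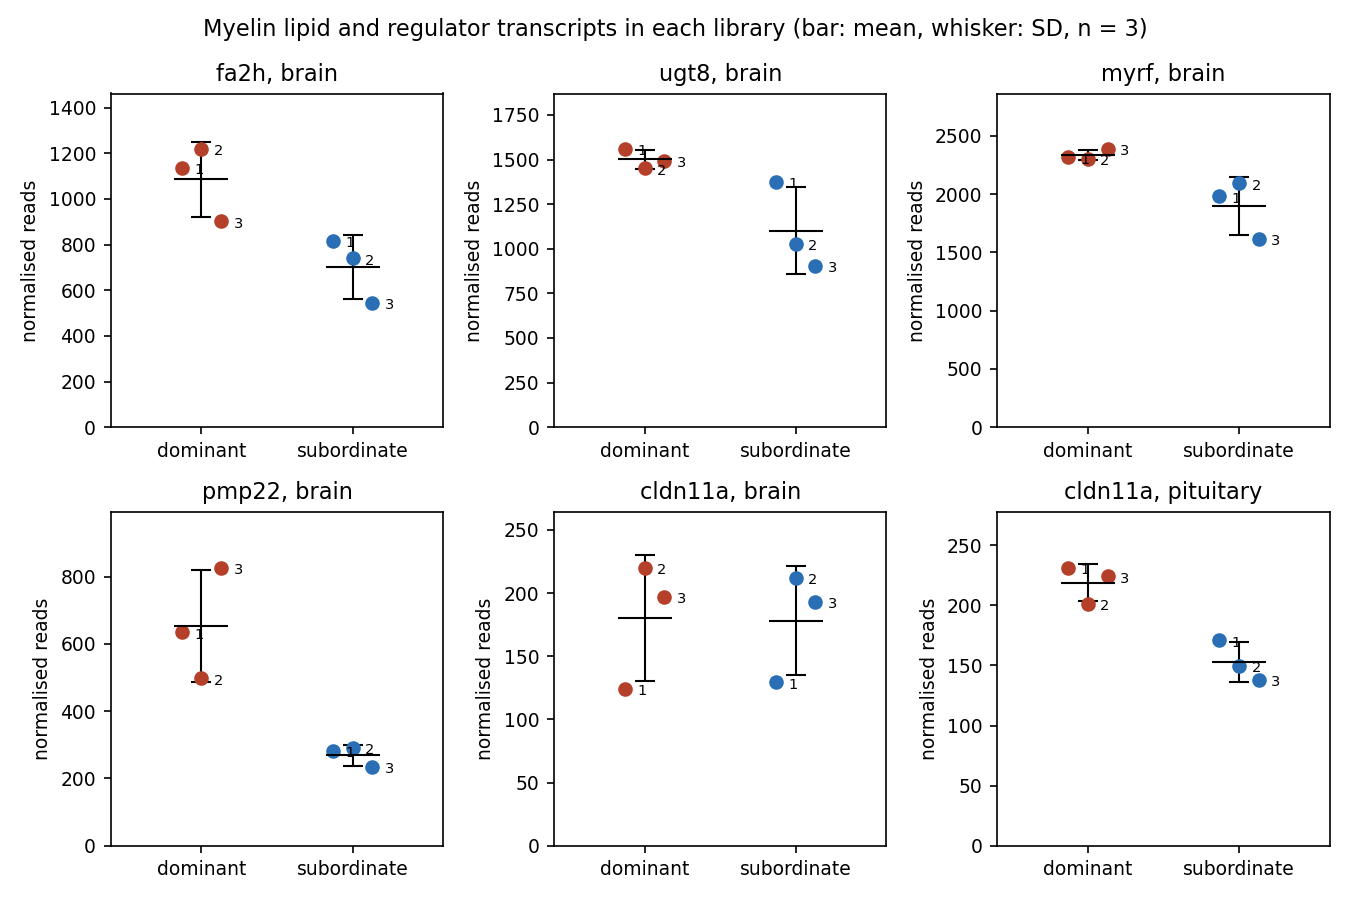
Normalised reads of the 5 genes in each library, dominant left of subordinate, with the library number beside each point, the mean as a bar and the SD as whiskers (n = 3). Dominant and subordinate brains do not overlap for fa2h, ugt8, myrf and pmp22 and overlap for cldn11a, while cldn11a does not overlap in the pituitary.

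In the pituitary cldn11a had 231, 201 and 224 normalised reads in dominant males 1, 2 and 3, and 171, 149.7 and 138 in subordinate males 1, 2 and 3. The lowest dominant pituitary stood 30.5 normalised reads above the highest subordinate one. Means were 219 ± 15.7 in dominant and 153 ± 16.6 in subordinate pituitaries (SD, n = 3 each), a log2 difference of 0.52 ± 0.17 (SE). The difference ran from 0.45 to 0.60 with 1 library left out. The pituitary table is a selection by outcome, since the authors' deposited table gives each of its 714 genes a p-value of at most 0.0499. Of the 714, 38.5% had dominant libraries entirely above subordinate ones, and limma called 0.84% at an adjusted p under 0.05. Since the genes were selected on this same comparison, neither share is evidence of a difference, and the adjusted p has no valid error rate. The tissues were normalised separately, so the level in the pituitary is not set against that in the brain. The difference between the tissues was not tested. Of the lists of other cells, those of Schwann cells, meninges and fibroblasts, radial glia, neurons and oligodendrocyte precursors had 1 gene each in that table. The fibroblast and pericyte gene pdgfrb stood at 289 to 297 normalised reads in dominant and 176 to 247 in subordinate pituitaries, without overlap. The Schwann cell regulator egr2 stood at 11.6, 55.7 and 385 in dominant pituitaries 1, 2 and 3, and at 28.3, 3.74 and 9.32 in subordinate pituitaries 1, 2 and 3, with overlap. The radial glial aromatase gene cyp19a1b stood at 2486 to 5943 in dominant and 1064 to 2396 in subordinate pituitaries, without overlap. The neuronal transporter gene slc17a6 stood at 342 to 579 in dominant and 285 to 353 in subordinate pituitaries, and the precursor list's vcanb at 84.2 to 174 in dominant and 37.3 to 100.8 in subordinate pituitaries, both with overlap. The part of such cells in the difference of cldn11a was not tested.

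Of the 82 genes of the 3 myelin lists in the brain table, members included, 4 were in the pituitary table, all from the myelin protein list. Beside cldn11a they were mpz, cntn1 and ndrg1a. The main compact myelin protein of fish, mpz, had 82.1, 378 and 115 normalised reads in dominant pituitaries 1, 2 and 3, and 55.3, 96.1 and 105 in subordinate pituitaries 1, 2 and 3. A single dominant pituitary stood far above the other 5, and the groups overlapped. The axon and glial adhesion gene cntn1 averaged 132 ± 24.9 in dominant and 75.1 ± 30.9 in subordinate pituitaries, and ndrg1a, whose human counterpart is mutated in a demyelinating neuropathy, averaged 208 ± 83.7 in dominant and 399 ± 200.1 in subordinate pituitaries (SD, n = 3 each). Both overlapped between groups. The other members, fa2h, ugt8, myrf and pmp22, were not analysed in the pituitary.

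Other genes of myelin and of the oligodendrocyte were then examined in the brain in 3 lists, which hold 77 genes beside the members. None of the 77 passed the limma test at an adjusted p under 0.05 (adjusted p = 0.895 to 0.998), where 0.0276% of all genes passed. At an unadjusted p under 0.05 there were 10 on the higher side and 1 on the lower side. Over all genes 3.1% were on the higher and 2.07% on the lower side at that level. By edgeR 0 of the 77 passed after adjustment and 11 had an unadjusted p under 0.05, and by DESeq2 the counts were 0 and 9. Over all 21743 genes the same counts were 6 and 1094 by edgeR, and 84 and 1002 by DESeq2. The limma count of 11 was 3, 4 and 12 without dominant brains 1, 2 and 3, and 24, 6 and 6 without subordinate brains 1, 2 and 3. The count over all genes tested rose and fell with the same libraries, though not in the same proportion, from 1124 of 21743 with all libraries. This count was 843, 798 and 1296 without dominant brains 1, 2 and 3, and 1904, 898 and 908 without subordinate brains 1, 2 and 3. Without dominant brain 1, 3 of the 77 thus stood beside 843 of 21685 genes.

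The lipid list follows the pathway of fa2h and ugt8, from ceramide synthesis to sulfatide and to breakdown. Of its 22 other genes, 15 had a difference above 0, with a median log2 difference of 0.069, against 48.8% above 0 and a median of -0.0043 over all genes. At an unadjusted p under 0.05 by limma there were 3 on the higher side and 0 on the lower, against 3.1% and 2.07% of all genes. The median was 0.031 without subordinate brain 1, and 0.12 and 0.11 without dominant brain 3 and subordinate brain 3.

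The sulfotransferase gal3st1, which acts directly after ugt8, was one of these 3. It stood at 256, 218 and 242 normalised reads in dominant brains 1, 2 and 3, and at 191, 182 and 128 in subordinate brains 1, 2 and 3. The groups did not overlap, and subordinate brain 3 was lowest, as for fa2h, ugt8, myrf and pmp22. The log2 difference was 0.53 ± 0.17 (SE, limma adjusted p = 0.934). A duplicate outside the naming rule, gal3st1b, averaged 28.4 normalised reads in dominant and 36.2 in subordinate brains, with overlap and a log2 difference of -0.33 ± 0.28 (SE, limma adjusted p = 0.934).

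The other genes of smallest p in the lipid list act before and after these steps. The dihydroceramide desaturase gene degs1, which completes ceramide, averaged 1391 ± 55.3 in dominant and 1200.1 ± 80.4 in subordinate brains. The sphingomyelinase gene smpd1 averaged 271 ± 2.0 in dominant and 227 ± 17.2 in subordinate brains (SD, n = 3 each). For both, dominant libraries lay entirely above subordinate ones. Overlapping groups were seen for psap, whose product helps lysosomal lipid breakdown, at 8781 ± 560.4 in dominant and 7703 ± 646 in subordinate brains. The groups also overlapped for the very-long-chain elongase elovl1b, at 2741 ± 235 in dominant and 2196 ± 623 in subordinate brains, and for the ceramidase asah1, at 1580.1 ± 13.4 in dominant and 1469 ± 95.5 in subordinate brains. Adjusted p was 0.934 for each of these 5 genes by limma.

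The list of myelin proteins held 33 other genes. Of these, 25 had a difference above 0, where 48.8% of all genes did, and the list's median log2 difference was 0.19. By limma 7 had an unadjusted p under 0.05, all on the higher side, against 3.1% of all genes on that side. The median was 0.14 without subordinate brain 3 and -0.019 with the mean log2 value of posterior hox genes, markers of hindbrain and spinal cord, as a covariate (the hox score). In 6 of the 33 the dominant libraries lay entirely above the subordinate ones, and in 1, fyna, entirely below, where 5.46% and 5.33% of all genes did so. The gene fyna, for a kinase, is named although it falls outside the naming rule. The list includes adhesion genes such as cntn1 and nfasc that neurons also express.

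The smallest p in that list belonged to gjb1a, a form of the connexin that joins the layers of the myelin sheath. It had 1215, 1221 and 1033 normalised reads in dominant brains 1, 2 and 3, and 955, 737 and 559 in subordinate brains 1, 2 and 3. The pattern over the libraries was close to that of fa2h, with no overlap and subordinate brain 3 lowest. The log2 difference was 0.65 ± 0.19 (SE, limma adjusted p = 0.895). Its duplicate gjb1b averaged 989.6 ± 38.0 in dominant and 743 ± 163 in subordinate brains, and ermn, which encodes a cytoskeletal protein of oligodendrocytes, averaged 1208 ± 114 in dominant and 912 ± 163 in subordinate brains (SD, n = 3 each). Neither gene overlapped between groups. Next came cntn1a at 7043 ± 438 in dominant and 6183 ± 236 in subordinate brains, also without overlap. The oligodendrocyte enzyme gene cnp averaged 1613 ± 136 in dominant and 1260.4 ± 197 in subordinate brains, and cntn1 averaged 5438 ± 417 in dominant and 4534 ± 516 in subordinate brains, both with overlap.

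The structural genes with the most reads, mbpa and mpz, had overlapping groups. The gene mbpa, for the basic protein that compacts the membrane, had 69811, 71306 and 59673 normalised reads in dominant brains 1, 2 and 3, and 82259.8, 64348 and 49593 in subordinate brains 1, 2 and 3. Subordinate brain 1 was the highest and subordinate brain 3 the lowest of the 6 libraries. The same held for mpz, at 63068, 68842 and 63515 in dominant brains 1, 2 and 3, and 72547, 50927 and 32542 in subordinate brains 1, 2 and 3. Log2 differences were 0.059 ± 0.19 for mbpa and 0.40 ± 0.27 for mpz (SE, limma adjusted p = 0.977 and 0.934).

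The row named mbp, separate from mbpa, averaged 34.0 ± 7.16 in dominant and 44.2 ± 21.9 in subordinate brains (SD, n = 3 each), with overlap.

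The list of oligodendrocyte regulators held 22 genes beside myrf. Of these, 15 had a difference above 0, where 48.8% of all genes did. The list's median log2 difference was 0.11, which was 0.0096 without subordinate brain 3, 0.064 without dominant brain 1 and -0.071 with the posterior hox score as a covariate. At an unadjusted p under 0.05 by limma none was on the higher side and 1 on the lower, against 3.1% and 2.07% of all genes. The lineage factor sox10 averaged 948 ± 19.0 in dominant and 826 ± 121 in subordinate brains, and olig2 averaged 1064 ± 27.5 in dominant and 925 ± 278 in subordinate brains (SD, n = 3 each). For both, 2 of the 3 subordinate libraries lay below the dominant ones while subordinate brain 1 did not, whereas myrf was below in all 3.

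The 1 regulator with an unadjusted p under 0.05 was erbb3a, a form of the neuregulin receptor. It stood at 60.1, 57.4 and 68.0 normalised reads in dominant brains 1, 2 and 3, and at 75.6, 100.8 and 82.5 in subordinate brains 1, 2 and 3. Dominant libraries lay entirely below subordinate ones, as for 5.33% of all genes (log2 difference -0.47 ± 0.18 SE, limma adjusted p = 0.934). Its more counted duplicate erbb3b averaged 1351 ± 44.3 in dominant and 1128 ± 225 in subordinate brains, with overlap. Among the others of smallest p were znf536 and nrg1, with log2 differences of -0.16 and 0.32, overlapping groups and an adjusted p of 0.934 each by limma.

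**Figure D2:**
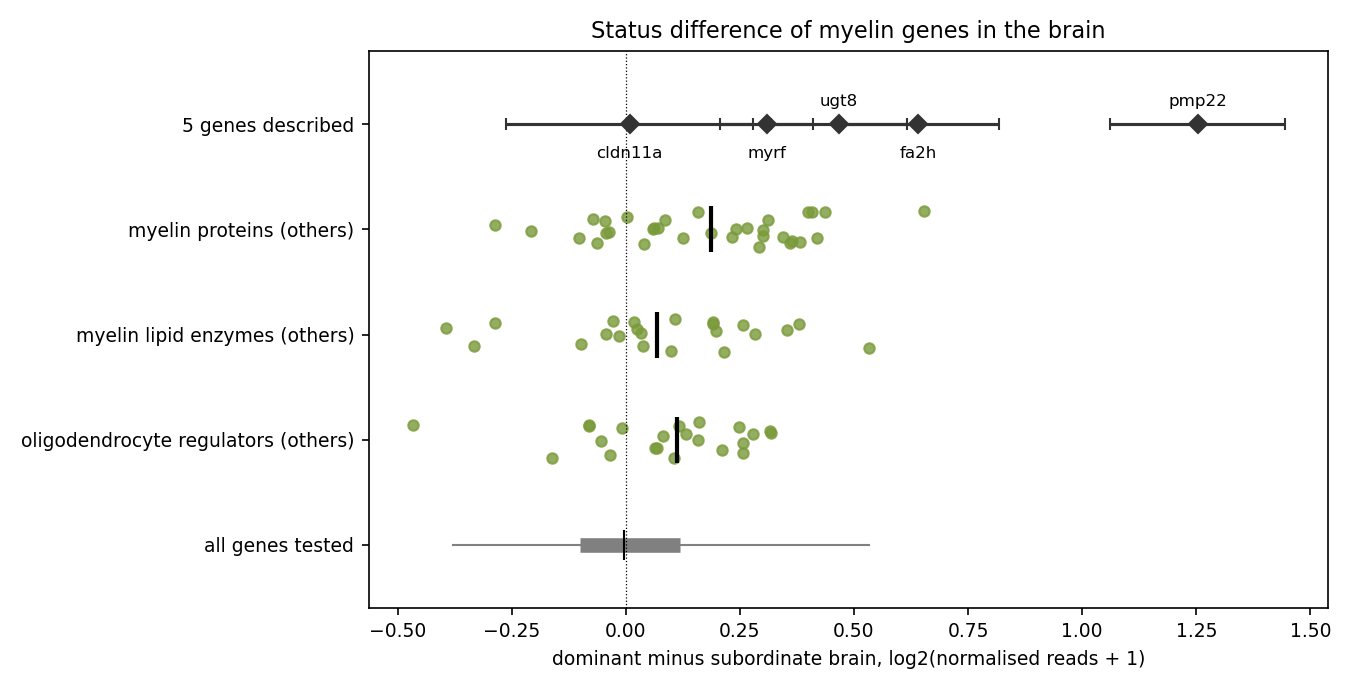
Log2 difference, dominant minus subordinate brain, of the 5 genes (diamonds with SE), of the other genes of the 3 lists (points, with the list median as a black bar) and of all genes tested (median, middle 50% as a thick line, 5th to 95th percentile as a thin line). The list medians are 0.19, 0.069 and 0.11 against -0.0043 for all genes. The member pmp22, at 1.25, lies beyond every listed gene. It was picked with its status values in view, so nothing is read from that.

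Within each library the members were then set against the other genes of the myelin protein list. The mean log2 value of the 33 other myelin proteins was 0.086, 0.11 and 0.064 above the mean of the 6 brains in dominant brains 1, 2 and 3. In subordinate brain 1 it was 0.049 above, and in subordinate brains 2 and 3 it was -0.090 and -0.22 relative to that mean. This score weights each gene alike whatever its reads, and includes genes that neurons also express. Its own difference was 0.17, against 0.40 for mpz and 0.059 for mbpa, the genes of the list with the most reads. Relative to the score the log2 differences were 0.47 for fa2h, 0.30 for ugt8, 0.14 for myrf, 1.08 for pmp22 and -0.16 for cldn11a. On this relative scale the groups did not overlap for fa2h, ugt8 and pmp22, and overlapped for myrf and cldn11a. The members were picked with their brain values by status in view, so nothing is read from this. The share of all genes without overlap on this scale was not computed.

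Relative to mpz alone the differences were 0.24 for fa2h, 0.068 for ugt8, -0.091 for myrf, 0.85 for pmp22 and -0.39 for cldn11a. Per 1000 mpz reads, fa2h stood at 18.03, 17.7 and 14.2 in dominant brains 1, 2 and 3, and at 11.3, 14.5 and 16.7 in subordinate brains 1, 2 and 3. By that measure the groups overlapped. For pmp22 the same ratios were 10.1, 7.23 and 13.02 in dominant brains 1, 2 and 3, and 3.89, 5.71 and 7.17 in subordinate brains 1, 2 and 3, so that the lowest dominant library was just above the highest subordinate one. Both measures were chosen after the values were seen, and the members were picked with their status values in view, so nothing is read from either.

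Summed levels of brain region markers also differed between the groups without overlap, although no gene of these lists passed the limma test (lowest adjusted p = 0.52). At an unadjusted p under 0.05 by limma, 8 of 11 tested hox genes were on the higher side, against 3.1% of all genes. On the lower side at that level were 3 of 11 forebrain genes, against 2.07% of all genes. Genes of the posterior hox groups, which mark the hindbrain and spinal cord, summed to 1071 to 1898 normalised reads over 15 genes in dominant brains, and to 811, 70.6 and 157 in subordinate brains 1, 2 and 3. The lowest hox sum was in subordinate brain 2. The members fa2h, ugt8, myrf and pmp22 were lowest in subordinate brain 3. Of the 15 genes, 9 were at 0 in at least 1 brain. The 11 genes of the forebrain list summed to 5179, 7029 and 7002 in dominant brains 1, 2 and 3. In subordinate brains 1, 2 and 3 they summed to 8045, 9137 and 10622. The highest forebrain sum was in subordinate brain 3. The part of brain region in the differences of the members was not tested. Neuronal genes summed to 273372 to 294277 in dominant and 265296 to 287999 in subordinate brains over 20 genes, with overlap. Of the 20, 3 lay entirely higher in dominant brains and 2 entirely lower, where 5.46% and 5.33% of all genes did so. The 3 higher ones were neurofilament genes. The gene nefl stood at 3451 to 4580 in dominant and 365 to 2806 in subordinate brains, nefla at 2819 to 4460 in dominant and 844 to 2769 in subordinate brains, and nefm at 15688 to 21690 in dominant and 6085 to 13066 in subordinate brains. The 2 lower ones were syt1, at 22737 to 24006 in dominant and 25345 to 27594 in subordinate brains, and syn2. The gene syn2 stood at 9673 to 10263 in dominant and 10835 to 12015 in subordinate brains. These neuronal genes were picked after their values were seen.

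With the mean log2 value of the hox genes as a covariate, the log2 difference was 0.25 ± 0.31 for fa2h and 0.027 ± 0.22 for ugt8. It was 0.31 ± 0.21 for myrf and 1.46 ± 0.38 for pmp22 (SE). The hox score itself did not overlap between the groups, at 5.07 to 6.19 in dominant and 1.35 to 4.22 in subordinate brains (mean log2 value), so that region and status cannot be fully told apart in these libraries. For cldn11a the difference with this covariate was 0.58 ± 0.48 (SE).

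**Figure D3:**
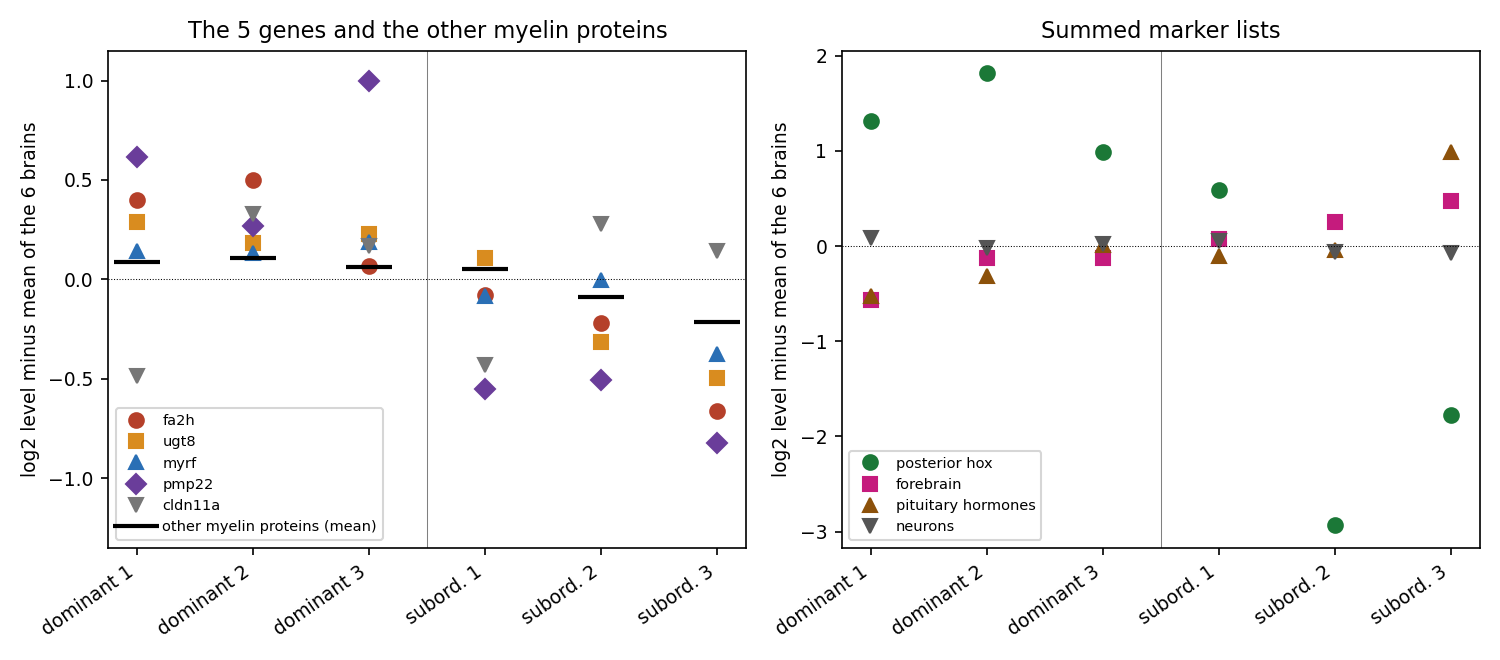
Left, log2 level of each of the 5 genes in each brain library minus its mean over the 6 brains, with the mean of the 33 other myelin proteins as bars; right, the same for the summed reads of 4 marker lists. Subordinate brain 3 is lowest for fa2h, ugt8, myrf and pmp22 and highest for pituitary hormones, and the posterior hox sum is lower in all 3 subordinate brains.

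Markers of other cells that can carry pmp22 or cldn11a were read beside them. The Schwann cell list summed to 78975 to 87893 normalised reads in dominant and 61553 to 77029 in subordinate brains over 11 genes, but 1 gene that astroglia also express, s100b, made up most of it, at 76315 to 84600 in dominant and 58710 to 73283 in subordinate brains, without overlap. Of the 9 Schwann cell genes tested, 6 had a difference above 0, with a median log2 difference of 0.25. By limma 1 was on the higher side at an unadjusted p under 0.05. Over all genes these shares were 48.8% and 3.1%. Of the genes of myelinating Schwann cells, prx stood at 2.09 to 7.53 in dominant and 3.12 to 8.05 in subordinate brains, and ncmap at 36.3 to 48.9 in dominant and 26.2 to 38.4 in subordinate brains. Both overlapped between groups, prx was under the filter and not tested, and no gene of the list was at 0.

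Genes of meninges and fibroblasts summed to 5758 to 5830 normalised reads in dominant and 4881 to 5861 in subordinate brains over 13 genes. Of the 12 that were tested, 9 had a difference above 0 and 4 had an unadjusted p under 0.05 on the higher side, against 48.8% and 3.1% of all genes, with 0 passing after adjustment by limma. The median log2 difference of the list was 0.22. Picked after its values were seen, the collagen gene col1a2 stood at 216 to 341 in dominant and 172 to 184 in subordinate brains, without overlap. The microglial list summed to 45253 to 54444 in dominant and 31077 to 51647 in subordinate brains over 9 genes. All 9 microglial genes had a difference above 0, with a median of 0.25 and 0 at an unadjusted p under 0.05 by limma. Over all genes 48.8% were above 0, and 3.1% were on the higher side at that level. Oligodendrocyte precursor genes summed to 8594 to 10814 in dominant and 8659 to 9021 in subordinate brains over 9 genes, and radial glial genes to 107154 to 129682 in dominant and 93324 to 116338 in subordinate brains over 8 genes. Of the 8 radial glial genes, 6 had a difference above 0, with a median of 0.28. In 2 of the 8 the groups did not overlap, both higher in dominant brains. Over all genes these shares were 48.8% and 5.46%. One of them, picked after its values were seen, was gfap, at 17273 to 23826 in dominant and 13427 to 15412 in subordinate brains. The radial glial gene with the most reads, slc1a2, overlapped, at 49168 to 56699 in dominant and 43360 to 59210 in subordinate brains. The part of any of these cells in the differences of pmp22 and the other members was not tested.

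The genes most like each member were sought among the 12005 named genes whose mean was 100 normalised reads or more. Likeness was the root mean square (RMS) difference of their log2 profiles over the 6 brains, each centred on its own mean. It includes the status difference and is a description of 6 libraries. For fa2h the nearest were myo1g, an unconventional myosin (RMS 0.060), pip5kl1 (0.088) and the connexin gjb1a (0.090). For ugt8 they were mical3b (0.057), gjb1b (0.065) and glb1l2 (0.069). Each lipid enzyme thus had 1 of the 2 connexin duplicates among its 3 nearest genes. For myrf the nearest were syngr2b (0.054), st6galnac (0.056) and dapl1 (0.062).

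The nearest genes to pmp22 were farther off, namely padi2 (0.25), lnpk (0.25) and slc5a7a (0.28). In mammals the enzyme of padi2 modifies myelin basic protein, and slc5a7 carries choline into cholinergic neurons. The transcript padi2 had 162, 141 and 224 normalised reads in dominant brains 1, 2 and 3, and 118, 102 and 78.5 in subordinate brains 1, 2 and 3, with dominant brain 3 highest as for pmp22. For cldn11a the nearest were slc30a8, the zinc transporter best known from pancreatic beta cells (0.031), cacna2d1a, a calcium channel subunit (0.039), and nid2, of basement membranes (0.049). All 3 shared its low values in the libraries numbered 1. None of the 3 was in a myelin list, nor was any of the 3 genes nearest to myrf or to pmp22. Of those nearest to fa2h and ugt8, only gjb1a and gjb1b were.

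Among the members themselves the RMS difference was 0.19 between fa2h and ugt8, 0.17 between ugt8 and myrf and 0.24 between fa2h and myrf. Ranks among the 12005 genes depended on which gene they were counted from. In likeness to fa2h, ugt8 ranked 40 and myrf 145, while in likeness to myrf, ugt8 ranked 1260 and fa2h 6804. In likeness to pmp22, ugt8 ranked 69 and fa2h 71, while pmp22 ranked 9662 in likeness to fa2h and 11090 in likeness to ugt8. The RMS difference of pmp22 was 0.47 from fa2h and 0.46 from ugt8. For cldn11a it was 0.39 to 0.76 from the other members, which ranked 8709 to 11889 in likeness to it.

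Neighbouring genes were looked up by their order in the RefSeq annotation, for the 4 members it names. Of the 2 genes on either side of fa2h, ugt8, myrf and cldn11a, 10 of 16 were tested. All 10 overlapped between groups, but so did most genes. Over all genes only 5.46% lay entirely higher and 5.33% entirely lower in dominant brains. Log2 differences of the 10 ran from -0.076 for ndst3, beside ugt8, to 0.16 for eps8l2, beside myrf, with limma adjusted p from 0.934 to 0.990.

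**Figure D4:**
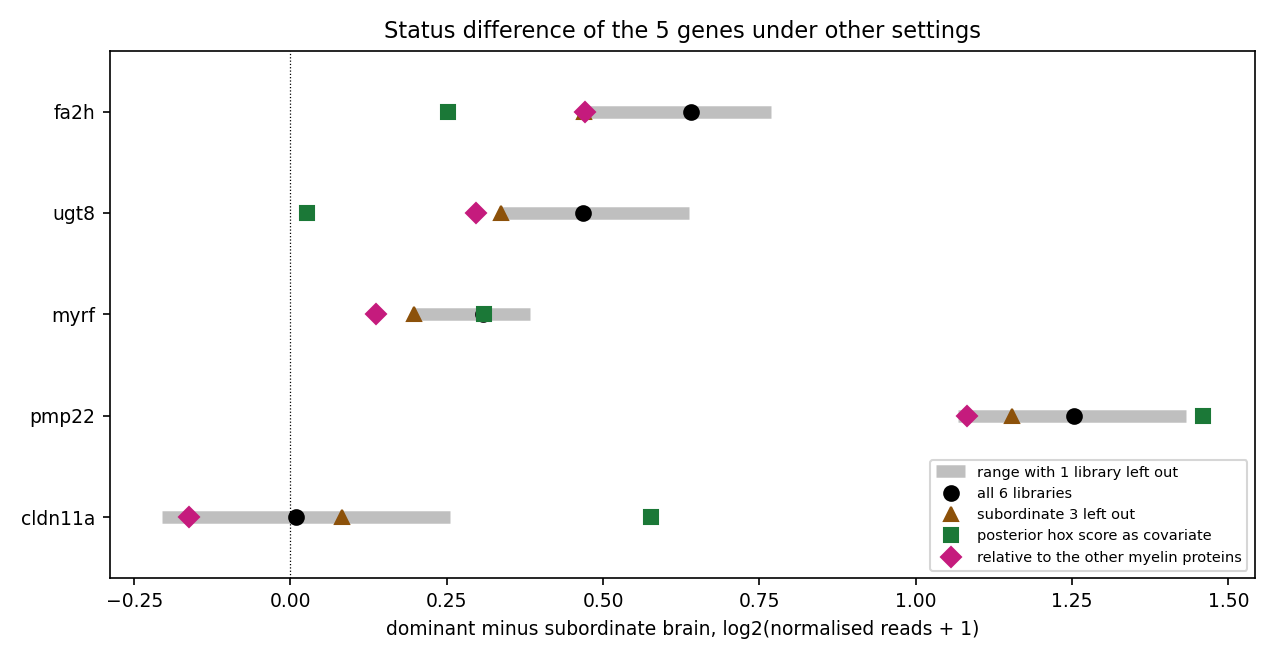
Log2 difference, dominant minus subordinate brain, of the 5 genes with all libraries, over the range with 1 library left out (grey), without subordinate brain 3, with the posterior hox score as covariate, and relative to the other myelin proteins. The difference of pmp22 stays between 1.07 and 1.46 in these settings, while that of ugt8 is 0.027 with the hox score.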

How the data were processed

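Whole-tissue RNA was sequenced from brains and pituitaries of dominant and subordinate males, 3 libraries each, grouped by the titles. Per the labels' protocols, miRNeasy was used for RNA and TruSeq v2 for libraries. The submitters' processing notes name STAR 2.201, HTSeq, FastQC 0.11.4, Trim Galore, DESeq and DESeq2 among the authors' tools. No source used here gives the build, annotation or strand setting, so no positions are printed. The deposited signal values are normalised read counts. In the brain 100% of values were whole multiples of a step per library (tolerance 0.01 reads), and size factors were 0.956 to 1.10. The size factor of subordinate brain 3, 0.994, is close to 1, so its recovery is less certain, and its reads entered the count tests all the same. The tables also hold a log2 fold change and a p-value per gene from the authors' own comparison, per the file headers, used only as description. There were 251 blank lines left out and 0 value columns not used.

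LOC identifiers were named from RefSeq (assembly O_niloticus_UMD_NMBU), which matched 17128 of 17130 in the brain and gave 5834 a symbol. Two-sided tests used limma (3.58.1, R 4.3.3) with log2(value + 1) as input, a minimum mean of 10 and Benjamini-Hochberg adjustment over all genes kept. An exact permutation test of 3 against 3 cannot give a p under 0.1. Alternatives were other pseudocounts (0.5, 5), filters (none, 50), TMM and quantile rescaling, the replicate block, left-out libraries, a hox covariate, and, in the brain, edgeR 4.0.16 and DESeq2 1.42.0 on recovered reads. Members and lists were chosen with earlier results of these data known. Named were the members, their duplicates, up to 6 genes of smallest p per list, the mbp, mpz, sox10 and olig2 genes, and the 3 nearest genes to each member. Some genes that this rule names are not reported here. Libraries of a group differed by more than sampling noise (mean chi-square per gene 11.8 to 28.8). Figures were drawn with matplotlib 3.10.9.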

Additional observations from a re-analysis of the deposited data

How the results depend on the processing

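The status differences of the 5 members kept within 1 SD of the log2 values between replicates under other pseudocounts, filters and rescalings and with any 1 library left out. With the posterior hox score as covariate the difference was 0.25 for fa2h, 0.027 for ugt8 and 0.58 for cldn11a, and list medians were -0.019 for myelin proteins, -0.071 for oligodendrocyte regulators and -0.026 for the 3 lists together. Relative to mpz it was 0.24 for fa2h, 0.068 for ugt8, -0.091 for myrf, 0.85 for pmp22 and -0.39 for cldn11a, and relative to the other myelin proteins 0.14 for myrf. The cause was not tested. Limma called 6 genes in the brain, 1 to 15 with 1 library left out, 0 with the hox score (1314 with an unadjusted p under 0.05) and 84 by DESeq2. It called 6 in the pituitary, 0 without dominant replicate 3 (169 at an unadjusted p under 0.05) and 255 without subordinate replicate 1. The pituitary genes were selected on the same comparison, so nothing is read from these pituitary counts.

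With the replicate block 1 gene was called in the brain. The member differences could not change, since each number occurs once in each group. Their SE with the block was 0.083 for fa2h, 0.12 for ugt8, 0.10 for myrf, 0.21 for pmp22 and 0.11 for cldn11a. Without it these were 0.18, 0.15, 0.10, 0.19 and 0.27. Correlations of same-numbered deviations over genes were 0.092, -0.030 and -0.021 in the brain and 0.148, 0.078 and -0.053 in the pituitary, for numbers 1, 2 and 3. They were not over 0.1 for every number, so the numbers were not taken to pair the samples, and the labels do not say whether they do. Pairing is not excluded by this, since the deviations within a group are tied to each other through the group mean. In both tissues only number 1 correlated best with its own number. Count tests were not run in the pituitary. For the pituitary cldn11a all 11 settings stayed within 1 SD, among them the replicate block, where the difference could not change.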
